A study of Mus musculus with 4 samples.

Results

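The genes described here encode the 7 proximal kinases of the T cell receptor: Lck and Fyn of the Src family, Zap70 and Syk of the Syk family, Txk and Tec of the Tec family, and Csk. They were taken by name, a rule that holds no measured value, and all 7 were found among the 50600 genes of the files. The 7 were chosen, however, with earlier results of these data known. The material was RNA of primary T cells from the mouse strain C57BL/6NJ, in 4 libraries that the labels call biological replicates of a single group with no treatment named. The labels state neither age nor sex and give all 4 the same donor identifier, so p-values reflect no more than the spread among these 4 libraries, which may be technical. The file headers add the words Th0 and activated and a time of 48 hours, and the protocol linked in the labels is named for differentiation of CD4+ T cells. No second condition was measured, so the questions were how high each kinase gene stood, in what order, and how far the replicates differed.

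When the receptor binds its ligand, Lck, carried to it by the coreceptor, phosphorylates the tyrosine motifs of the CD3 and zeta chains. Zap70 docks on these motifs, is activated by Lck, and phosphorylates the adaptors Lat and Slp-76, on which Tec family kinases then activate phospholipase C gamma. Csk restrains the pathway by phosphorylating the inhibitory tail tyrosine of Lck and Fyn, a mark that the phosphatase CD45 removes. Fyn is the other main Src kinase of T cells, Syk takes the place of Zap70 in B cells and many myeloid cells, and Txk, also called Rlk, and Tec belong to the Tec family.

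Counts assigned to genes ranged from 45110199 to 127755788 per library, so that 3 counts, taken as the limit a count of 0 allows, corresponded to 0.0235 to 0.0665 CPM, the count scaled to the library total without regard to gene length. Such limits and all intervals cover counting error only. All 7 T cell markers lay above 1 CPM, as did Cd4, Zbtb7b and Cd40lg, while Cd8a averaged 0.279 CPM ± 0.143 (SD, n = 4) and Cd8b1 9.62 CPM ± 0.749. Of the markers of other cell types, Lyz2, Itgax, Klra8, Cpa3, Mcpt8, Fcer1a, Pf4, Ppbp, Gp9, Hbb-bs and Alas2 had no count in any library. Those that passed the test of lying above 1 CPM were Zbtb46 of dendritic cells at 5.76 CPM ± 0.845, Cd68 and Adgre1 of myeloid cells at 2.69 ± 0.315 and 2.60 ± 0.332, and Eomes of natural killer cells at 2.34 ± 0.392. Zbtb46 was the only 1 of 5 dendritic markers above 1 CPM, with 3 below and 1 without a count. Eomes was the only 1 of 4 natural killer markers above, with 2 below and 1 without a count. The platelet marker Itga2b was undecided at 1.22 CPM ± 0.531, with replicate 2 lowest at 0.443 CPM. The highest B cell marker was Cd79b at 0.846 CPM ± 0.360. Kit, the highest mast cell and basophil marker, averaged 0.381 CPM ± 0.264 and was highest in replicate 2, at 0.732 CPM. Hba-a1, the highest erythroid marker, had 3 counts in all. In bulk RNA, fewer cells of a type and less RNA per cell cannot be told apart.

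The DNA before the transcription starts is shown first, because within each family the members differed in its content of CG dinucleotides, a feature that neither the choice of genes nor the counts used, though it was picked after several sequence features had been looked at. RefSeq (GRCm38.p6) listed 13 starts for the 7 genes, and CG was counted in the full 250 bases before each. Sequences read 5′ to 3′ on the strand of the gene, with each CG in capitals, for the start farthest upstream and without bases that GENCODE annotates as exon. Syk is not shown because its whole window is annotated as exon. The sequence of Csk, whose window holds no annotated exon base, is not printed either. For Fyn and Syk the window lies wholly inside the gene as GENCODE bounds it, from 39368855 and from 52583173, and for Tec partly so. For these 3 genes the window is therefore not all upstream of the annotated gene.
Lck, chr4:129573642-129573891, minus strand: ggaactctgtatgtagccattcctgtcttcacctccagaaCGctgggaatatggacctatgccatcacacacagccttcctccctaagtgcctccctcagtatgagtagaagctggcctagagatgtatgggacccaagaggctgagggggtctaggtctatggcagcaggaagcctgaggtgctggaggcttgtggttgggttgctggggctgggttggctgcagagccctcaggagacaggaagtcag
Fyn, chr10:39369549-39369763, plus strand: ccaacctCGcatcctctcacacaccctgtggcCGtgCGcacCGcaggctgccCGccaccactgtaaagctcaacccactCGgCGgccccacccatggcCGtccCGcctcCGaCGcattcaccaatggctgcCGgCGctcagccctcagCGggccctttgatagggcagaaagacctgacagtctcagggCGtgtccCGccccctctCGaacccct
Zap70, chr1:36761548-36761797, plus strand: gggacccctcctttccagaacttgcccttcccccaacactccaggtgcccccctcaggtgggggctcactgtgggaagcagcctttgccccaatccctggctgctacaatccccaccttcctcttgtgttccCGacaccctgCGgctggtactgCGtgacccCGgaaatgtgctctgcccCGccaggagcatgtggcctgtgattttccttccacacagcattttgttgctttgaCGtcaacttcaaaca
Txk, chr5:72752778-72753027, minus strand: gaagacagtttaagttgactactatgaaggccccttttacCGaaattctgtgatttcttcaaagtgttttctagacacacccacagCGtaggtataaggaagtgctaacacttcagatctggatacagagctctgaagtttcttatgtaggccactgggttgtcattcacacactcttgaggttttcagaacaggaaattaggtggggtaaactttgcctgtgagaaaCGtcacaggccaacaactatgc
Tec, chr5:72868484-72868698, minus strand: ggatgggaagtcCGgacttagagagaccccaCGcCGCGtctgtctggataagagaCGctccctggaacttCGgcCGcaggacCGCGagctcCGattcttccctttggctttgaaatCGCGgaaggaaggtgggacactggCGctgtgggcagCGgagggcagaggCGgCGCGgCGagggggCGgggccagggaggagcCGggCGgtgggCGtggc
The window of Lck held 1 CG, against 21 for Fyn. That of Zap70 held 6 and that of Syk 27, and that of Txk held 3 and that of Tec 26. Over all 32851 windows in the table the median was 6, and 7.87%, 49.6% and 29.0% of windows held fewer than those of Lck, Zap70 and Txk, against 83.7%, 91.4% and 90.4% for Fyn, Syk and Tec. Csk held 7. This contrast describes the start farthest upstream only. The other start of Syk held 2 CG, that of Lck 3, that of Txk 4 and that of Csk 16, and the other starts of Zap70 held 2 and 7. Lck is known to be transcribed from a distal and a proximal promoter, and counts per gene cannot tell which start was used.

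**Figure D1:**
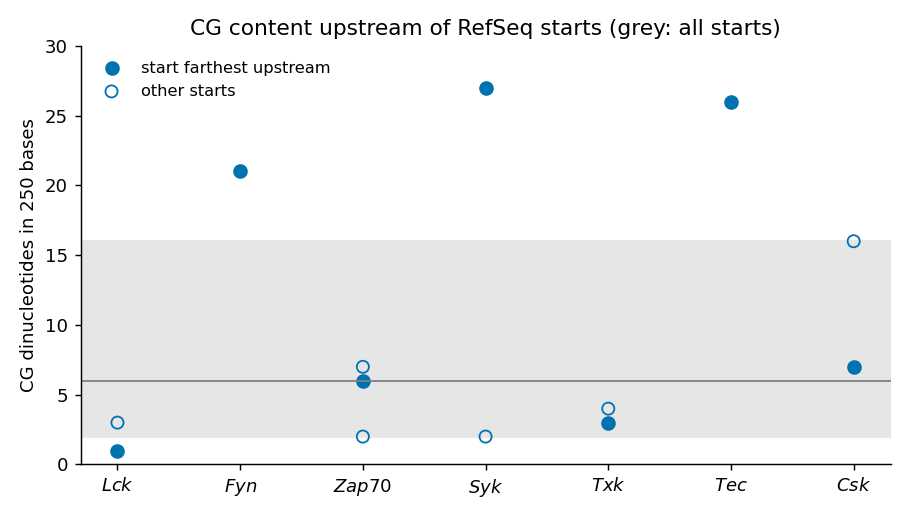
CG dinucleotides in the 250 bases before each RefSeq start (y axis) for the 7 kinase genes (x axis). Filled points are the start farthest upstream and open points the other starts; the grey line and band are the median of 6 and the middle 50% of all 32851 windows (2 to 16). Fyn, Syk and Tec lie at 21, 27 and 26, above the band.

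Lck was the most abundant of the 7 kinase genes (ENSMUSG00000000409.14, chromosome 4, 129548344 to 129573641, mm10). Its level, in TPM (scaled to the summed exon length of the gene as well as to the library), was 756, 747, 750.0 and 734 in replicates 1 to 4. These 4 values lie close together, with a mean of 747 TPM ± 9.17 (SD, n = 4), and 99.3% of the 23365 genes with a count in any library had a lower mean TPM. Fyn (ENSMUSG00000019843.14, chromosome 10, 39368855 to 39565381) stood at 219, 221, 229 and 225 TPM in replicates 1 to 4, a mean of 223 ± 4.53. No library of Fyn came near the lowest of Lck. The log2 ratio of Lck over Fyn was 1.74 ± 0.04, a 3.34-fold difference in the same direction in 4 of 4 libraries (limma over all genes, adjusted p = 1.22e-08). Such a call is the rule and not the exception, since 99.5% of all genes differed from Fyn in this test. From the spread of the ratio alone, without a variance shared across genes, the adjusted p was 1.38e-05. The size of the ratio depended on the length used, and it was 1.17 without length correction. With the longest or the median protein-coding transcript as the length, both chosen after the data were seen, it was 1.87 or 1.19. The gene-level counts do not separate the brain and T cell isoforms of Fyn.

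The 6 other Src family genes analysed were low or had no count, so that Lck made up 76.2% ± 0.452 (SD, n = 4) of the summed TPM of the 8 Src family genes analysed and Fyn 22.8% ± 0.486. Without length correction these shares were 68.3% and 30.4%, and with the longest protein-coding transcript as the length 77.8% and 21.3%. Fgr, a kinase best known from myeloid cells, came next at 5.82 TPM ± 0.719 and lay above 1 CPM (6.56 CPM ± 0.841). Yes1, a widely expressed member, also lay above 1 CPM at 3.20 CPM ± 0.490 (1.46 TPM ± 0.224). Src and Lyn passed neither test of 1 CPM, at 1.47 CPM ± 0.781 and 1.25 CPM ± 0.533. Replicate 2 stood apart for Src, at 0.310 CPM against 1.70, 1.97 and 1.89 in replicates 1, 3 and 4, and Src was more variable than genes of like abundance (edgeR goodness of fit, adjusted p = 0.00529). Without replicate 2, Src lay above 1 CPM (limma, adjusted p = 0.000208). Leaving out the lowest library raises the mean and narrows the spread, so this call adds no separate support. Blk, a B lineage kinase, lay below 1 CPM with 8 counts in all. Frk had no count in any library. The 7 myeloid markers summed to between 4.99 and 6.35 CPM in each library. Of these 7, 2 lay above 1 CPM, Cd68 at 2.69 CPM and Adgre1 at 2.60 CPM. Another 4 lay below, among them Csf1r with 1 count in all, and Lyz2 had no count. The part of myeloid cells in the levels of Fgr and Lyn was not tested.

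**Figure D2:**
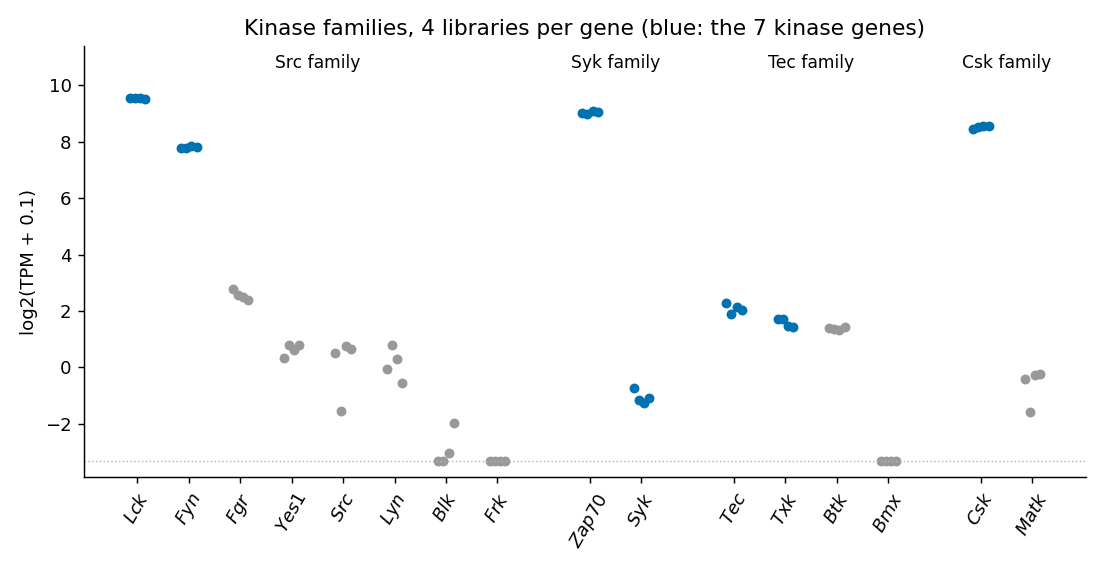
Level of each kinase gene as log2(TPM + 0.1) (y axis), 1 point per library, with genes grouped by family along the x axis; blue points are the 7 kinase genes and grey points their relatives. The dotted line marks a TPM of 0, where all 4 libraries of Frk and Bmx lie, while Lck and Fyn stand far above the other Src family genes plotted.

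Within the Syk family nearly all RNA was Zap70 (ENSMUSG00000026117.10, chromosome 1, 36761798 to 36782818). It stood at 522, 512, 539.6 and 536 TPM in replicates 1 to 4, a mean of 527 ± 12.9 (SD, n = 4). Syk (ENSMUSG00000021457.14, chromosome 13, 52583173 to 52648792) had only 79, 43, 109 and 54 counts in the same libraries. These counts correspond to 1.39 CPM in replicate 1 (exact Poisson 95% interval 1.10 to 1.73) and to 0.953 (0.690 to 1.28), 0.853 (0.701 to 1.03) and 1.01 (0.760 to 1.32) in the others. Replicate 1 was the highest, and its interval overlapped those of replicates 2 and 4 but not that of replicate 3. Per length, Syk averaged 0.385 TPM ± 0.0831, and Zap70 supplied between 99.90% and 99.94% of the summed TPM of the pair.

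The log2 ratio of Zap70 over Syk was 10.10 ± 0.25, in the same direction in 4 of 4 libraries. Its adjusted p was 1.04e-30 by limma and 7.14e-05 from the spread of that ratio alone. The first value rests on a variance shared across genes, and every ratio to Syk carries the noise of Syk itself, so the second is the more cautious; 87.5% of all genes differed from Syk. Syk was the only one of the 7 kinase genes that passed neither test of 1 CPM (log2 level over the threshold 0.05, adjusted p = 0.839, limma). The remaining 6 of the 7 lay above it, where 47.4% of all 23365 genes did. On the TPM scale Syk lay below the threshold of 1 (log2 -1.20, adjusted p = 0.00491). The 6 B cell markers, from cells in which Syk is the main kinase of the family, summed to 3.50, 3.30, 2.26 and 1.72 CPM in replicates 1 to 4, with none at 0 in all libraries. Of these 6 markers, 5 lay below 1 CPM and 1, Cd79b, was undecided. The 7 myeloid markers summed to 4.99 to 6.35 CPM per library, with 2 above 1 CPM, 4 below and 1 without a count. The part of B cells in the levels of Syk, Blk and Btk, and of myeloid cells in that of Syk, was not tested.

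**Figure D3:**
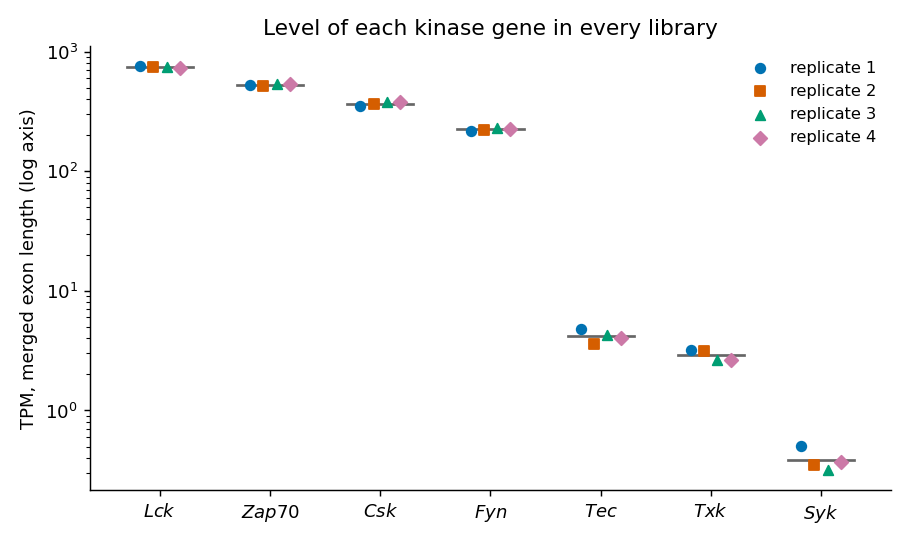
TPM from merged exon length (y axis, log scale) of the 7 kinase genes (x axis, in order of mean level); each symbol is a library and the grey line the mean of 4. Lck, Zap70, Csk and Fyn lie between 219 and 756 TPM, Tec and Txk between 2.62 and 4.77, and Syk between 0.317 and 0.505.

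The Tec family genes Txk and Tec were expressed at far lower levels than Lck, Zap70, Csk and Fyn. Txk (ENSMUSG00000054892.14, chromosome 5, 72695978 to 72752777) reached 10.3, 10.2, 8.34 and 8.37 CPM in replicates 1 to 4, a mean of 9.29 ± 1.08 (SD, n = 4). Replicates 1 and 2 lay above replicates 3 and 4. Tec (ENSMUSG00000029217.16, chromosome 5, 72755716 to 72868483) lies on the same strand, 2938 bases from Txk, and reached 5.24, 3.97, 4.65 and 4.38 CPM, a mean of 4.56 ± 0.532. Every library of Txk stood above every library of Tec in CPM. Both genes lay above 1 CPM (adjusted p = 1.62e-11 and 6.82e-09, limma), although for Tec a DESeq2 Wald test gave an adjusted p = 0.0794. Btk, the Tec kinase of B cells, was at 2.50 TPM ± 0.0930 (2.30 CPM ± 0.0991, above 1 CPM) and Bmx had no count.

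Which of Txk and Tec was higher depended on the length used. The exons of Txk in the files sum to 10955 bases, 4.67 times its longest protein-coding transcript of 2344 bases in GENCODE M21, where 2 of its 8 transcripts are retained introns. For Tec the figures are 3744 and 2659 bases, a ratio of 1.41. With the merged length, Txk stood at 3.20, 3.17, 2.64 and 2.62 TPM and Tec at 4.77, 3.63, 4.31 and 4.01 TPM in replicates 1 to 4. Tec was then higher in 4 of 4 libraries, with Txk over Tec at -0.51 ± 0.22 in log2 (limma, adjusted p = 0.0240), and 95.6% of all genes differed from Tec. Without replicate 1, 3 or 4 the adjusted p was 0.0516, 0.145 or 0.106.

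With the longest coding transcript as the length, a choice made after the data were seen, Txk stood at 10.9, 10.8, 9.02 and 8.92 TPM and Tec at 4.87, 3.72, 4.44 and 4.11 TPM. The log2 ratio of Txk over Tec was then 1.19 ± 0.22, with Txk higher in 4 of 4 libraries (adjusted p = 1.56e-06). Without length correction it was 1.01. Counts per gene do not show how many reads fell in the retained introns. For the other kinase genes the merged length was 1.22 to 1.75 times the longest coding transcript, and the order of the other 5 was the same on both scales.

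**Figure D4:**
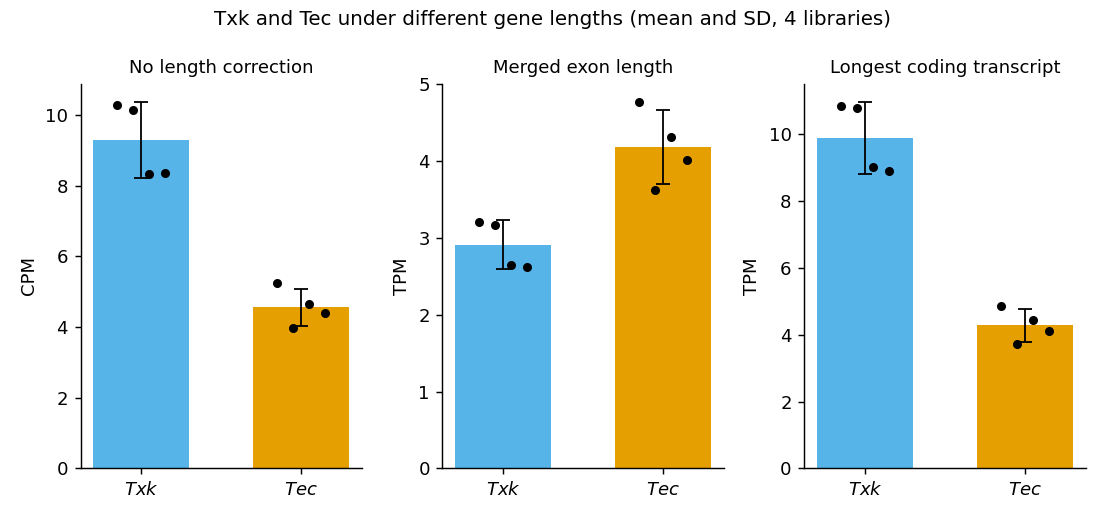
Level of Txk and Tec (x axis) in CPM and in TPM from either gene length (y axes, linear from 0); bars are means, error bars SD and points the 4 libraries. Tec is higher only in the middle panel, at 4.18 TPM against 2.91 TPM for Txk.

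Csk, the inhibitory kinase, was expressed in the range of its targets (ENSMUSG00000032312.7, chromosome 9, 57626646 to 57653631). It stood at 348, 367, 376 and 381 TPM in replicates 1 to 4, a mean of 368 ± 14.3 (SD, n = 4). In every library it lay below Lck and above Fyn. The log2 ratio of Lck over Csk was 1.02 ± 0.07 (adjusted p = 5.12e-07, limma) and that of Fyn over Csk -0.72 ± 0.04 (adjusted p = 3.25e-07), each in the same direction in 4 of 4 libraries, where 99.6% of all genes differed from Csk. Matk, its relative, passed neither test of 1 CPM at 0.784 CPM ± 0.319. As for Src, replicate 2 was its lowest library, at 0.310 CPM against 0.879, 0.955 and 0.993 in replicates 1, 3 and 4. Lyn, by contrast, was highest in replicate 2, at 1.95 CPM. Of 7 genes of Csk anchors and binding partners, 6 lay above 1 CPM. Dok2 and Dok1, adaptors that dampen receptor signals, stood at 66.7 TPM ± 1.60 and 34.4 TPM ± 1.29, and the phosphatase gene Ptpn22, whose product binds Csk, at 47.0 TPM ± 2.57. The adaptor gene Lime1 was the lowest at 1.96 TPM ± 0.432 and was undecided.

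The order of mean TPM over the 7 was Lck, Zap70, Csk, Fyn, Tec, Txk and Syk. Each library gave the first 4 in that order. Lck stood 0.50 ± 0.05 above Zap70 in log2 (limma, adjusted p = 5.21e-06), where 99.8% of all genes differed from Zap70. With the median in place of the longest coding transcript as the length, also chosen after the data were seen, that ratio was -0.16, because a fragment of 454 bases is the other of only 2 coding transcripts of Zap70. Zap70 exceeded Csk by 0.52 ± 0.05 (adjusted p = 7.23e-06). That ratio was 0.49 with the longest and 0.21 with the median coding transcript, and 0.20 without length correction. Below Fyn the level dropped sharply, with a log2 ratio of Fyn over Tec of 5.71 ± 0.17 (adjusted p = 3.28e-12). The limma p-values here rest on a variance shared across genes, and from the spread of that ratio alone the adjusted p was 8.50e-05. Syk lay below Txk by -2.64 ± 0.19 (adjusted p = 5.04e-06; 94.8% of all genes differed from Txk), and by -4.09 ± 0.20 with the longest coding transcript. All 6 neighbouring pairs differed beyond their spread with merged lengths. A change of length turned the order of Tec against Txk and, with the median transcript, that of Lck against Zap70. For each of the 21 pairs the direction was the same in 4 of 4 libraries, the strongest outcome an exact two-sided sign-flip test can show with so few libraries, and that test cannot reach 0.05. The 7 genes summed to between 1853 and 1901 TPM, of which Lck took 39.9% ± 0.814, Zap70 28.2% ± 0.391, Csk 19.6% ± 0.605 and Fyn 11.9% ± 0.0970.

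Set beside the chain genes Cd3e and Cd3d, Lck and Zap70 stood higher with either length, but by how much, and the place of Csk and Fyn, depended on the length. Cd3e, a receptor chain gene, averaged 227 TPM ± 5.42 (SD, n = 4) with merged exons, and the log2 ratios of Lck, Zap70 and Csk over it were 1.72 ± 0.04, 1.22 ± 0.03 and 0.70 ± 0.04 (adjusted p = 1.74e-09, 1.03e-08 and 4.13e-07, limma). Fyn and Cd3e were not told apart on that scale (-0.02 ± 0.01, adjusted p = 0.240), nor were Csk and Cd3d (-0.03 ± 0.15, adjusted p = 0.606), with Cd3d at 377 TPM ± 25.9. With the longest coding transcript Cd3e averaged 461 TPM ± 12.3. Lck and Zap70 then lay above it by 0.66 ± 0.04 and 0.15 ± 0.03 in log2 (adjusted p = 2.69e-07 and 0.00114), while Csk over Cd3e turned to -0.34 ± 0.04 and Fyn over Cd3e was -1.21 ± 0.01 (adjusted p = 5.19e-05 and 1.41e-08). Csk over Cd3d was 0.24 ± 0.15 on that scale (adjusted p = 0.00619). Lck and Zap70 lay above Cd3d by 0.99 ± 0.09 and 0.49 ± 0.13 with merged exons and by 1.24 ± 0.09 and 0.73 ± 0.13 with the longest coding transcript, in 4 of 4 libraries each. Cd4, whose product carries Lck, averaged 792 TPM ± 15.01, slightly above Lck in 4 of 4 libraries (log2 ratio of Lck over Cd4 -0.09 ± 0.03, adjusted p = 0.0185), a call lost with the longest coding transcript (-0.04 ± 0.03, adjusted p = 0.191). Cd3g stood at 154 TPM ± 13.4. The fifth chain gene, Fcer1g, which can stand in for the zeta chain, lay below 1 CPM at 0.395 CPM ± 0.102.

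Other genes of the pathway, from a list of 48, were mostly expressed. Of these, 39 lay above 1 CPM, 3 below, 4 were undecided and 2 had no count. Among all genes tested, which leave out those with no count, 47.4% lay above and 48.3% below. The median of the 48 was 49.3 TPM, against 1.80 TPM over all genes tested. The list was chosen with earlier results of these data known, so these figures describe it and test nothing. All 11 phosphatases and negative regulators lay above, with the CD45-associated protein gene Ptprcap at 1248 TPM ± 62.6 (SD, n = 4), Ptpn6, which encodes the phosphatase SHP-1, at 561 ± 21.5 and Ptprc, which encodes CD45, at 278 ± 9.66. The lowest of them was the receptor phosphatase gene Ptprj at 3.80 TPM ± 0.405. Lck stood 1.43 ± 0.05 above Ptprc in log2 with merged exons (limma, adjusted p = 8.73e-09), but the genes were not told apart with the longest coding transcript (0.00 ± 0.05, adjusted p = 0.962), where Ptprc averaged 729.8 TPM ± 26.9 and Lck 729 ± 8.30. All 9 substrate adaptors and enzymes lay above, led by Lat at 422 TPM ± 17.9, Lcp2, which encodes Slp-76, at 414 ± 13.3 and the Lck-binding adaptor gene Sh2d2a at 185 ± 11.8, with the adaptor gene Nck1 lowest at 14.5 ± 0.785. Of the 7 carriers and chaperones of Lck, 6 lay above. The chaperone genes Hsp90ab1 and Hsp90aa1 were the most abundant there at 6283 TPM ± 157 and 851 ± 11.9, and Cd8a the lowest at 0.263 TPM ± 0.133.

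The 4 abundant kinase genes varied little between replicates. The coefficient of variation of CPM was 1.49% for Lck, 1.29% for Fyn, 1.98% for Zap70 and 3.48% for Csk, against 11.6% for Txk, 11.7% for Tec and 22.2% for Syk. Among the 200 genes nearest to each in abundance the median was 3.42% for Lck, 3.23% for Fyn, 3.20% for Zap70, 3.19% for Csk, 9.38% for Txk, 12.3% for Tec and 25.4% for Syk. No member was more variable than genes of like abundance by edgeR's goodness-of-fit test (0 of 7 adjusted over the 13279 genes tested, and 0 of 7 at an unadjusted p below 0.05), where 0.422% of all genes were called. The smallest unadjusted p was 0.318, for Txk. Replicate 1 held the highest CPM of 4 kinase genes, Lck, Syk, Txk and Tec, and the lowest of Fyn and Csk. The widest departure from a gene's mean was that of Syk in replicate 1, by 0.39 on the log2(CPM + 0.1) scale, and for Lck, Fyn, Zap70 and Csk no library departed by more than 0.07.

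**Figure D5:**
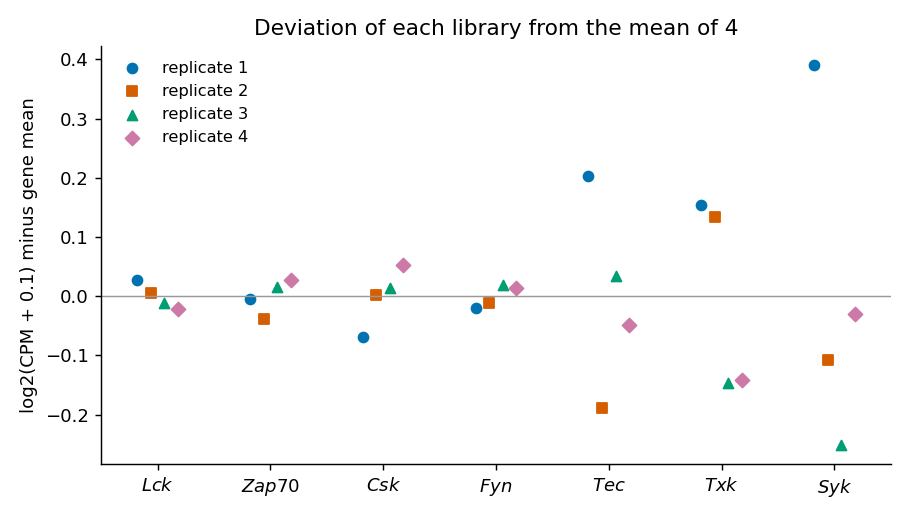
Departure of each library from the gene's mean in log2(CPM + 0.1) (y axis) for the 7 kinase genes (x axis, in order of mean TPM); each symbol is a library. Points of Lck, Zap70, Csk and Fyn lie within 0.07 of 0, and those of Tec, Txk and Syk spread further, up to 0.39 for Syk in replicate 1.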

How the data were processed

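The authors deposited whole-number counts of read pairs for each gene, made from STAR alignments with featureCounts 1.4.6-p4 over GENCODE M13 exons, strand option 2, per the file headers. The command has neither option for counting multi-mapped or multi-overlapping reads, and no source used here gives the STAR version. The assembly is mm10 per the labels, which call the assay total RNA-seq although they link to a library protocol with PolyA+ in its name. Symbols and transcripts came from GENCODE M21 (50376 of 50600 genes matched). No exon base of a kinase gene overlapped another gene on the same strand except 25 bases of Lck (Mir8119). Of 50-base windows of their transcripts, 0.315% of those of Txk and none of the others occurred in another gene.

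CPM (counts scaled to the library total) used all counted pairs, and TPM the exon lengths in the files. Levels were tested with limma 3.58.1 on log2(CPM + 0.1) against 1 CPM, one-sided in each direction, and pairs on the within-library difference of log2(TPM + 0.1), two-sided. Fits ran over all 23365 genes with a count, with Benjamini-Hochberg adjustment at 0.05, and ± is the SD over 4 libraries. Pseudocounts understate ratios of low genes. Variability used edgeR 4.0.16 with TMM on 13279 genes; DESeq2 1.42.0 was an alternative. Tests were tried on simulated data. The replicate number in each header equalled that of the label in 4 of 4 cases. Members and lists were chosen with earlier results of these data known. Named beside the 7 kinase genes were their listed family relatives (some genes are not reported here), the 3 highest and the lowest in TPM of each other list, the genes nearest Lck and Zap70 in level, and markers at 0, above 1 CPM or highest in their list; Csf1r was named after its value was seen. R was 4.3.3 and python 3.11.15.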

Additional observations from a re-analysis of the deposited data

How the results depend on the processing

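Under alternative pseudocounts, scalings, filters, thresholds, tests and units, with thinning to the shallowest library and with each replicate left out in turn, 6 of the 7 kinase genes stayed above the threshold of 1 except under the DESeq2 Wald test, where Tec was lost (adjusted p = 0.0794) and 2 genes were undecided. Syk, undecided at 1 CPM, lay below the threshold with TPM (log2 -1.20), with a threshold of 2 CPM (-0.89) and with TPM from the longest coding transcript (-0.92), so that 1 gene lay below and 0 were undecided under each. Of the 48 listed pathway genes, 3 lay below at the chosen settings, 6 at a threshold of 2 CPM and 0 under the DESeq2 Wald test.

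The log2 ratio of Txk over Tec, -0.51 at the chosen settings, was 1.01 without length correction, 1.19 with the longest and 1.18 with the median coding transcript, and -0.46 after thinning (adjusted p = 0.103). It ranged from -0.61 to -0.45 with a replicate left out. The ratio of Lck over Zap70 was -0.16 with the median coding transcript. Syk over Txk, -2.64 at the chosen settings, was -4.09 with the longest and -3.96 with the median coding transcript and -1.50 with a pseudocount of 1 TPM, and Zap70 over Syk, 10.10, was 8.58 with that pseudocount. The cause was not tested beyond the change of length itself. No kinase gene was called more variable than others under any alternative. The other 6 pairs with alternatives kept direction and side of the threshold. Between 43 and 109 counts of Syk per library limit its level. Gene pairs were compared within each library, but no analysis paired between conditions was possible because the labels give a single group.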

Other observations

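Among protein-coding genes, those nearest in level to Lck were Eif3l at 746 TPM ± 22.1 (SD, n = 4), Arpc2 at 743 ± 16.3 and Tagln2 at 766 ± 7.65, by the mean absolute difference in log2(TPM + 0.1) over 4 libraries (0.02, 0.03 and 0.04). Those nearest to Zap70 were Etf1 at 529.6 TPM ± 13.3, Mdh2 at 529 ± 14.0 and Pdcd1 at 533 ± 13.7 (0.02, 0.03 and 0.04). Likeness across libraries was not given as a correlation because 4 libraries are fewer than the 6 required.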
